A study of Mus musculus with 8 samples.

Results

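Embryoid bodies (EBs) made from CTCF-K20R mouse embryonic stem cells (mESCs) were compared with WT EBs on day 4 after differentiation, and the account centres on abundant genes that changed and that the figures of the study do not label. EBs are aggregates that mESCs form in hanging drops once leukaemia inhibitory factor is withdrawn, and the lineages of the early embryo arise in them. Both genotypes were of the E14Tg2A line, which came from a male mouse, and the mESCs had been kept in LIF and 2i over feeder fibroblasts before aggregation. The CTCF-K20R cells carried a change of lysine 20 of CTCF to arginine, introduced with CRISPR/Cas9 and a donor vector, and the WT cells did not. Gene expression was measured by RNA-seq in 2 libraries of each genotype on day 4, and 2 libraries of each from undifferentiated mESCs (day 0) served as reference. No source used here says whether the 2 CTCF-K20R libraries came from the same clone. A gene was differentially expressed (a DEG) when its log2 fold change exceeded 1 in either direction with an adjusted p below 0.05. Of 15767 genes tested, 2451 were DEGs on day 4, 353 of them averaged 1000 normalized counts or more in the 4 EB libraries, and 332 of these carried no label in a figure of the study. These 332 genes, 172 higher and 160 lower in CTCF-K20R EBs, are called the abundant DEGs below. They were chosen by their day 4 values, which are therefore given as a description. Their balance depended on scaling, with 162 higher and 181 lower genes after quantile normalization and 137 and 199 after scaling to the same total.

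CTCF is a zinc finger protein that binds DNA at specific sites, halts the cohesin complex as it extrudes chromatin loops, and so sets the borders of many chromatin domains and the contacts between enhancers and promoters. In EBs, as in the gastrulating embryo, pluripotent cells first take on a primed, epiblast-like state. Nodal, Wnt, BMP and FGF signals then direct a part of them through the primitive streak into mesoderm and endoderm, and cells that leave the streak exchange E-cadherin for N-cadherin, make fibronectin and respond to guidance cues. The organizer is the part of the streak that secretes antagonists of these signals.

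The replaced residue lies near the N terminus of CTCF. Ctcf (ENSMUSG00000005698) occupies chromosome 8 from 105636568 to 105682922 on the + strand of GRCm38, and codon 20 lies at 105663820 to 105663822 in exon 3 of the 12 exons of its coding transcript in GENCODE vM21. The reference coding bases of codons 11 to 30, at chr8:105663793-105663852, are shown because they hold the residue that distinguishes the groups, with the lysine codon in capitals.
Ctcf codons 11 to 30: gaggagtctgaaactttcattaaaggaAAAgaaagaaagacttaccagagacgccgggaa
Normalized counts of Ctcf were 4241 and 4256 in WT EBs against 4926 and 4771 in CTCF-K20R EBs, which gave a log2 fold change of 0.19 (SE 0.05, limma adjusted p = 0.0268). Ctcf was thus not a DEG. It lies in a stretch of chromosome 8, described near the end, whose genes had a median log2 fold change of 0.58. Ctcf was below that median on day 4, and on day 0 it was at 0.19 against a median of 0.56. The table holds 1 value per gene, so it does not show the base change itself.

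The EB libraries had similar totals, between 19412659 and 20943953 normalized counts, and 3 reads corresponded to 2.44 to 3.44 normalized counts. The WT libraries of a day differed by less than sampling noise, with a mean squared difference of 0.277 times that expected on day 4 against 4.36 times for the CTCF-K20R pair, so they were counted as 1 sample. The p-values therefore rest on the spread between the CTCF-K20R libraries, which may be technical, and no WT replicate spread was available. Besides Ctcf, the CTCF-K20R libraries of both days differed from WT in other ways. Eif2s3y, a Y-linked translation factor gene, had 1069 and 1050 normalized counts in WT EBs against 1.90 and 1.89 in CTCF-K20R EBs, and stretches of chromosomes 2, 8 and 14 were shifted as blocks, as described near the end. The effect of the K20R change cannot be told apart from such differences between the cell lines.

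Among all genes tested, 15.5% were DEGs on day 4, with 1087 higher (6.89%) and 1364 lower (8.65%). Among the 4656 genes with at least 1000 normalized counts, 7.58% were DEGs, 3.8% higher and 3.78% lower. By the adjusted p alone, 40.1% of all and 56.6% of abundant genes passed. The values of the genotypes did not overlap on day 4 for any of the 332 abundant DEGs, nor did they for 85.0% of all genes and 90.6% of abundant genes. Genes higher in CTCF-K20R EBs made up 49.5% of the DEGs with a mean of 10 to 50 normalized counts, 42% at 50 to 100, 37.9% at 100 to 500, 38.7% at 500 to 1000, 43.5% at 1000 to 2000, 58.8% at 2000 to 5000 and 56.3% at 5000 or more. Over all levels this share was 44.3%, but 53.7% after quantile normalization and 36.9% after scaling to the same total. The abundant DEGs that were lower had a median log2 fold change of -1.5 and reached -10.98, and 27 of the 160 fell by more than 3 on this scale. Those that were higher had a median of 1.35 and reached 4.11, and 9 of the 172 rose by more than 3. Summed over the lower genes, normalized counts went from 3.8% of the total in WT EBs to 0.957% in CTCF-K20R EBs. The sum over the higher genes went from 1.93% to 5.45%. At the threshold, G2e3 (1.00), Shroom2 (1.00) and Gm10094 (-1.01) lay just inside it, and Gmfb (-0.999), Exoc7 (-0.999) and Ahdc1 (0.997) lay just outside.

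**Figure D1:**
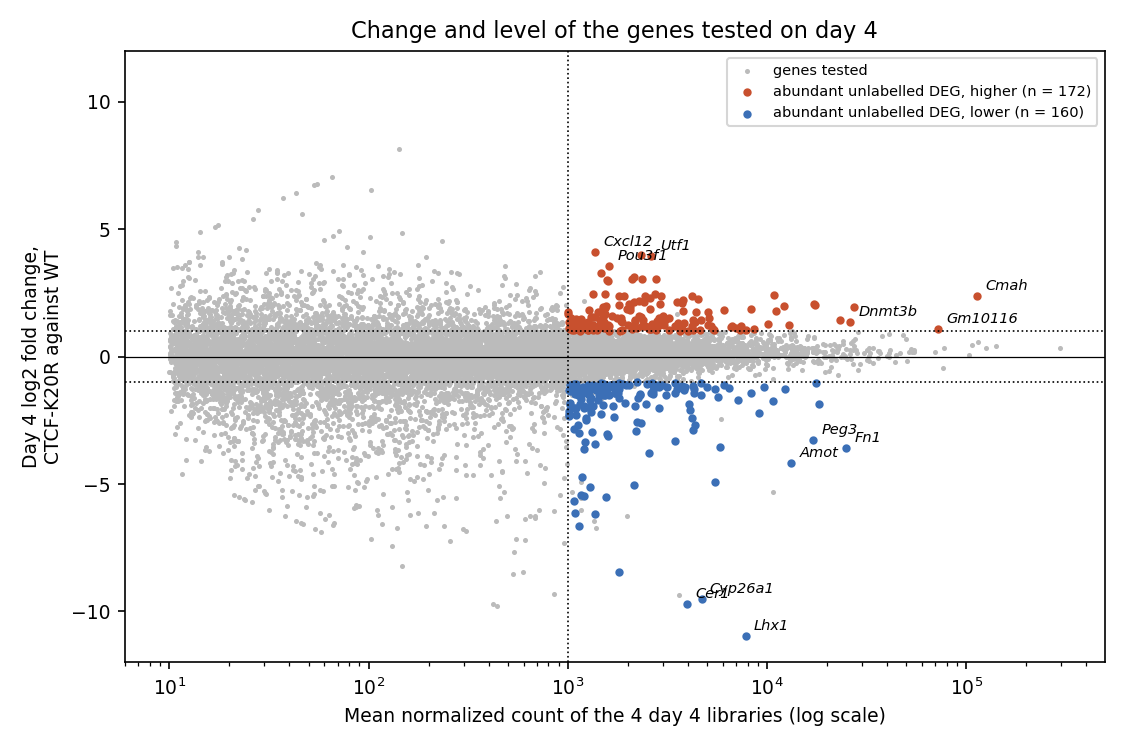
Mean normalized count of the 4 day 4 libraries (log axis, genes with a mean of at least 10) against the day 4 log2 fold change of CTCF-K20R against WT, with grey points for genes tested and coloured points for the 172 higher and 160 lower abundant DEGs. The dotted lines mark 1000 normalized counts and log2 fold changes of 1 and -1; the lower genes reach -10.98, whereas the higher genes do not exceed 4.11.

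Lhx1 and Cer1, genes of the organizer, had the largest falls among the abundant DEGs. Lhx1, a homeobox factor of the organizer, had 15499 and 15710 normalized counts in WT EBs against 6.65 and 6.78 in CTCF-K20R EBs. Lhx1 fell by 10.98 on the log2 scale (SE 0.49, adjusted p = 9.65e-05). Cer1, which encodes a secreted antagonist of Nodal, BMP and Wnt ligands, had 7907 and 7871 normalized counts in WT and 8.01 and 8.76 in CTCF-K20R EBs (log2 fold change -9.72, SE 0.59, adjusted p = 0.000231). Frzb, another secreted Wnt antagonist, went from 2721 and 2701 to 33.0 and 40.5. Chrd, the BMP antagonist chordin, went from 2287 and 2265 to 94.9 and 76.8, and Foxj1, a factor for motile cilia such as those of the node, from 2369 and 2354 to 54.8 and 48.6. None of these genes overlapped between the genotypes, nor did 90.6% of abundant genes. In the list for the organizer and axial mesendoderm, 14 of 19 genes tested were lower and 1 was higher, with a median log2 fold change of -4.44, against 8.65% lower and a median of 0.01 over all genes tested. The higher gene was Lefty1, an inhibitor of Nodal, with 634 and 617 normalized counts in WT and 2333 and 2433 in CTCF-K20R EBs (log2 fold change 1.93); 25.7% of its 31-base words also occur in transcripts of Lefty2. The Nodal co-receptor Tdgf1 and the Nodal partner Foxh1 stayed abundant and fell less, with log2 fold changes of -1.02 and -1.37. Tdgf1 had 23707 and 23669 normalized counts in WT and 11856 and 11495 in CTCF-K20R EBs. In bulk libraries, fewer cells of a type and less RNA per cell cannot be told apart.

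**Figure D2:**
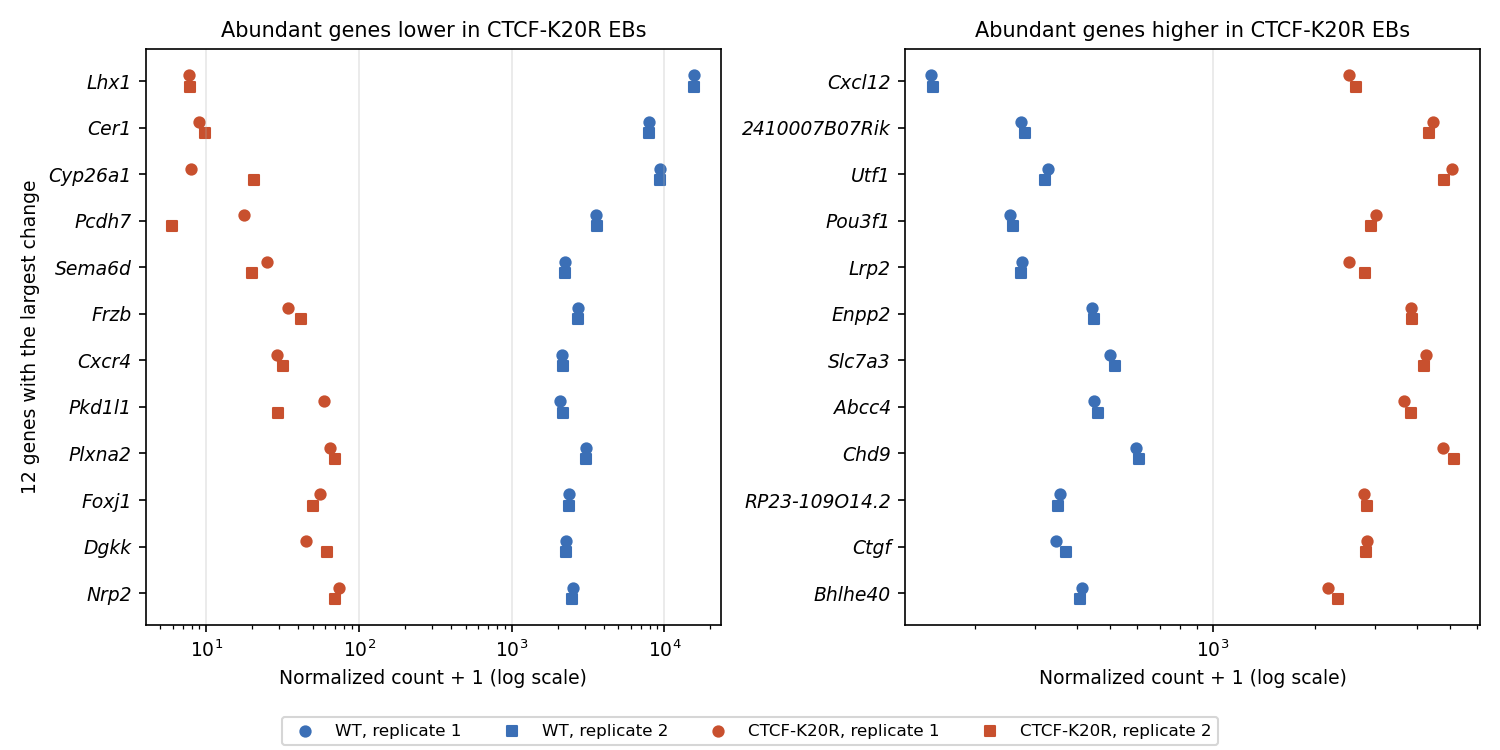
Normalized count plus 1 (log axis) in each of the 4 day 4 libraries for the 12 abundant DEGs with the largest fall (left) and the 12 with the largest rise (right); circles and squares are replicates 1 and 2 of WT (blue) and CTCF-K20R (red). The genotypes do not overlap for any of the 24 genes, as the naming rule required, nor do they for 90.6% of abundant genes. All 12 genes on the left lie below 100 in CTCF-K20R EBs, whereas those on the right lie above 100 in WT EBs.

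Genes of the streak and of presomitic mesoderm, the tissue that is segmented into somites, followed. Of 29 genes of that list, 20 were lower and 3 higher (median log2 fold change -2.75), against 8.65% lower and 6.89% higher over all genes tested. Msgn1, which specifies presomitic mesoderm, had 881 and 884 normalized counts in WT EBs and 0 in both CTCF-K20R libraries. Against the limit of 3 reads per library it was at least 257-fold lower. Aplnr, the apelin receptor gene of early mesoderm, went from 7254 and 7208 to 11.4 and 8.75, and the ligand gene Apln from 1714 and 1715 to 420 and 431. Both genes of the apelin list that were tested thus fell, by 9.36 and 2.01 on the log2 scale. Among the abundant DEGs of this group, Sp5, a Wnt target factor, went from 4173 and 4144 to 100 and 155. Dll3, a Notch ligand of the segmentation clock, went from 2502 and 2510 to 224 and 235, and the Notch target Hes1 from 1834 and 1789 to 531 and 470. The retinoic acid degrading enzyme Cyp26a1 showed the third largest fall of all abundant DEGs, from 9398 and 9342 to 6.95 and 19.6 (log2 fold change -9.52, SE 0.75, adjusted p = 0.000523), and its CTCF-K20R libraries differed more from each other than those of Lhx1. In the retinoic acid list, 5 of 15 genes were lower and 3 higher, the latter including the receptor gene Rarg (700 and 719 to 2896 and 2898).

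Signalling lists moved downward in part, where 8.65% of all genes tested were lower and 6.89% higher. Of 29 Wnt genes, 13 were lower and 2 higher (median -0.76). The Wnt feedback genes Axin2 and Lef1 had log2 fold changes of -1.28 and -1.52. Lgr4, an R-spondin receptor gene, changed the other way, from 1039 and 1056 to 2756 and 2644 (log2 fold change 1.36). Of 26 genes for BMP and TGF-beta signalling, 13 were lower and 2 higher (median -1.11). Fst, which encodes the activin antagonist follistatin, went from 6664 and 6691 to 1597 and 1525, and the BMP transducer gene Smad1 from 1888 and 1884 to 666 and 660. Of 23 genes for FGF and ERK response, 7 were lower and 2 higher (median -0.41). The ERK phosphatase genes Dusp6 and Dusp4 fell together, from 6859 and 6895 to 2426 and 2394 and from 6253 and 6245 to 2327 and 2292. Amot, an angiomotin that binds YAP and cell junctions, was named by its level. Amot had 25117 and 25041 normalized counts in WT EBs against 1358 and 1387 in CTCF-K20R EBs. Its log2 fold change was -4.19 (SE 0.21, limma adjusted p = 0.000136).

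Of 37 ligands and receptors that guide migrating cells and axons, 21 were lower, 2 were higher and 14 were not DEGs. Their median log2 fold change was -1.65, and over all genes tested 8.65% were lower and 6.89% higher. Sema6d, a transmembrane semaphorin, had 2246 and 2244 normalized counts in WT and 23.8 and 18.8 in CTCF-K20R EBs. Plxna2, which encodes a semaphorin receptor, went from 3067 and 3041 to 63.3 and 68.5, and the co-receptor gene Nrp2 from 2517 and 2490 to 72.8 and 68.1. Ntn1 (netrin 1) went from 2882 and 2818 to 314 and 347, and the Slit receptor gene Robo1 from 2001 and 1989 to 458 and 552. One ligand and receptor pair moved in opposite directions. Cxcr4, the receptor gene of the chemokine CXCL12, had 2129 and 2154 normalized counts in WT and 27.9 and 30.7 in CTCF-K20R EBs (log2 fold change -6.15, SE 0.31, adjusted p = 0.000142). Cxcl12 itself had 148 and 149 in WT and 2519 and 2646 in CTCF-K20R EBs, 17.4-fold higher, which was the largest rise among the abundant DEGs (log2 fold change 4.11, SE 0.16, adjusted p = 6.77e-05).

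Other steeply lowered genes had no list in common. Pcdh7, a protocadherin, went from 3585 and 3612 to 16.7 and 4.97, with 20.7% of its words shared with the overlapping gene 4932441J04Rik. Pkd1l1, a polycystin-like gene of left-right asymmetry, went from 2078 and 2148 to 57.7 and 28.5. Dgkk, a diacylglycerol kinase gene, went from 2270 and 2263 to 43.8 and 60.4. In each of them both CTCF-K20R libraries lay far below WT, but the standard errors of Pcdh7 (0.76) and Pkd1l1 (0.72) were wide. The fit shares 1 spread over both days, and Pkd1l1 had 1.44 and 5.45 normalized counts in the CTCF-K20R mESC libraries. Pkd1l1 missed the threshold without replicate 2 of the CTCF-K20R EBs (adjusted p = 0.0538).

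Genes for cell shape, junctions and matrix included the lower gene with the highest normalized count, a value that also grows with transcript length. Fn1, which encodes fibronectin, had 46096 and 46007 in WT EBs against 3602 and 3976 in CTCF-K20R EBs, 12.2-fold lower (log2 fold change -3.60, SE 0.06, adjusted p = 1.02e-05). In WT and CTCF-K20R mESCs the means of Fn1 were 47024 and 44732. Cdh2 (N-cadherin) went from 10643 and 10661 to 326 and 371, and Vim (vimentin) from 7075 and 7020 to 1134 and 1584. Cdh1 (E-cadherin) had 7650 and 7666 in WT and 17798 and 18538 in CTCF-K20R EBs (log2 fold change 1.25, SE 0.04, adjusted p = 3.02e-05). Cdh1 is located within the shifted part of chromosome 8, and subtracting the median of that region left a log2 fold change of 0.67. The epithelial genes Krt8 and Dsp, however, fell together with Cdh2, with log2 fold changes of -2.87 and -2.56, so not every epithelial gene followed Cdh1. Of the words of Krt8, 36% also occur in other transcripts, most of them of Krt8-ps. Snai1, whose product represses Cdh1 in the streak, had 1887 and 1872 in WT and 85.2 and 117 in CTCF-K20R EBs. In the whole list for cadherins, epithelial-mesenchymal transition and junctions, 9 of 26 genes were lower and 5 higher (median 0.16). Of 33 matrix and integrin genes, 10 were lower and 5 higher (median -0.33). Over all genes tested, 8.65% were lower and 6.89% higher. Collagen IV and collagen XVIII, both of basement membranes, moved apart: Col4a1 went from 2857 and 2837 to 544 and 565, whereas Col18a1 went from 1347 and 1382 to 6931 and 7113 (log2 fold change 2.36, adjusted p = 1.02e-05).

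The lower abundant DEGs also covered transport, RNA binding and imprinted genes. Emb (embigin, a partner of monocarboxylate transporters) went from 28626 and 28488 to 8169 and 7723, and the transporter gene Slc16a1 from 16454 and 16370 to 4820 and 4997. Rbm3, a cold-inducible RNA-binding protein gene, had 17368 and 17369 in WT and 7578 and 6986 in CTCF-K20R EBs. Its log2 fold change of -1.26 on day 4 stood beside -1.25 on day 0. Of 40 imprinted genes, 8 were lower and 5 higher (median -0.14), against 8.65% lower and 6.89% higher over all genes tested. Peg3, a paternally expressed zinc finger gene, had the highest normalized count of the lower ones and went from 30945 and 30908 to 3150 and 3291 (log2 fold change -3.26, SE 0.05, adjusted p = 1.02e-05). Peg10, a gene derived from a retrotransposon, went from 13495 and 13572 to 5836 and 5945. The higher imprinted genes included Gab1, an adaptor of receptor kinases, with 1659 and 1662 in WT and 4827 and 4767 in CTCF-K20R EBs; it lies in the shifted stretch of chromosome 8, and subtracting the median there took its log2 fold change from 1.53 to 0.95. Among abundant DEGs outside the naming rule, chosen after their values were seen, Hmga2 (a chromatin protein gene) fell from 10692 and 10706 to 953 and 857, and Gpc3 (a glypican gene) from 7516 and 7484 to 1165 and 1196.

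Pluripotency genes were among those higher in CTCF-K20R EBs. Of 23 genes of the naive pluripotency list, 14 were higher and 3 lower (median log2 fold change 1.35), and of 22 general and primed pluripotency genes 9 were higher and 3 lower (median 0.64), against 6.89% higher over all genes tested. Utf1, a chromatin factor of pluripotent cells, had 326 and 320 normalized counts in WT and 5069 and 4802 in CTCF-K20R EBs, 15.3-fold higher (log2 fold change 3.93, SE 0.06, adjusted p = 7.67e-06). Pou3f1, a POU factor of the primed epiblast, went from 253 and 258 to 3033 and 2921. Sox2, a core pluripotency factor, went from 608 and 618 to 3240 and 3192. Dnmt3b, the de novo DNA methyltransferase of the epiblast, had 14624 and 14620 in WT and 36756 and 38180 in CTCF-K20R EBs (log2 fold change 1.36, SE 0.04, adjusted p = 2.84e-05). L1td1 and Pim2 had log2 fold changes of 1.86 and 2.00. Of the abundant DEGs of the general and primed list, 6 were higher and 2 lower. Of the naive genes only Dppa5a was an abundant DEG (773 and 804 to 4079 and 4061), and 57.2% of its words occur in transcripts of other genes. The list thus rose mostly through genes below 1000 normalized counts, and Tbx3, Klf4 and Lifr were lower. The values of Utf1 in CTCF-K20R EBs lay above its means in mESCs, 3678 in WT and 2402 in CTCF-K20R. Pou3f1, in contrast, had means of 50.04 and 51.6 in mESCs, and Dnmt3b 3247 and 3114.

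**Figure D3:**
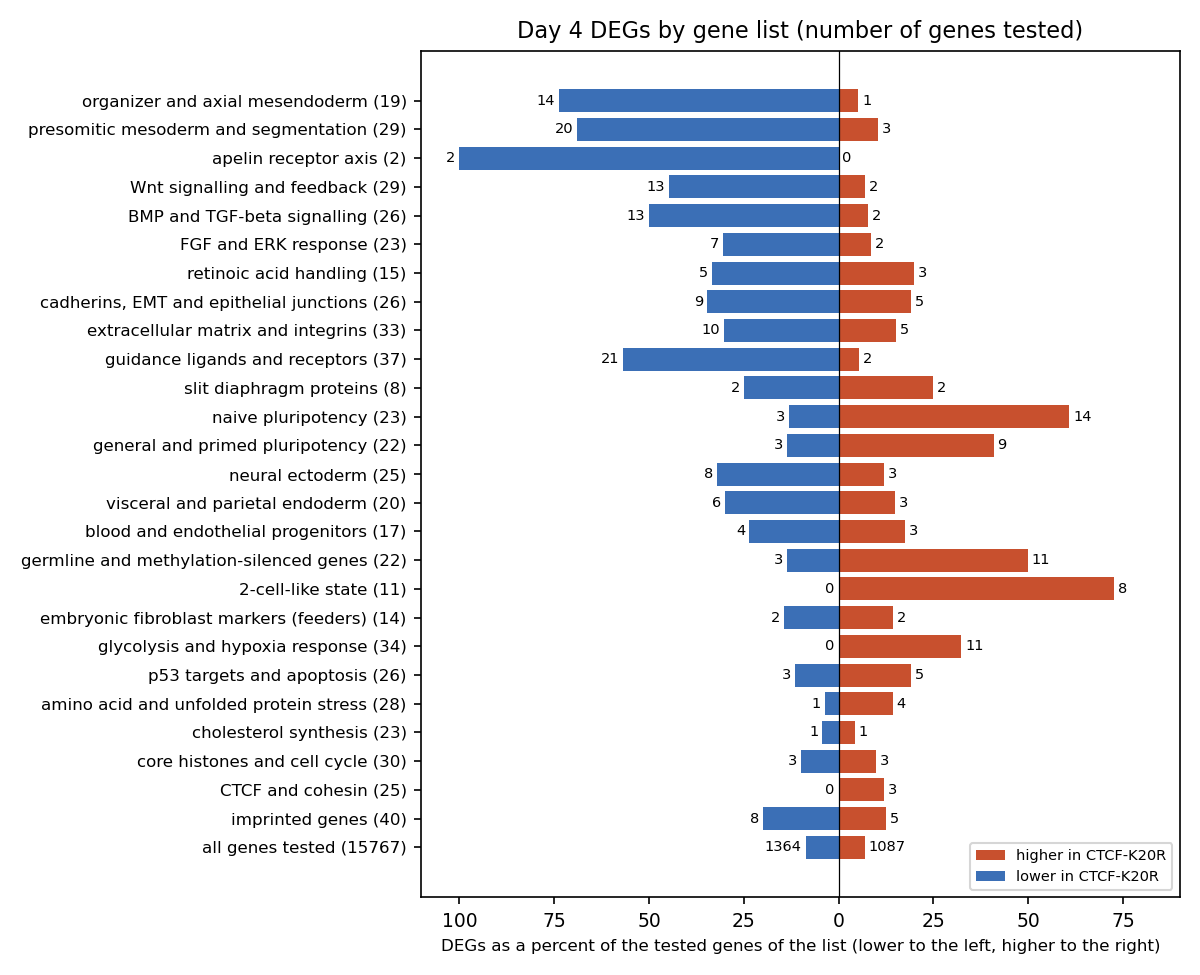
Day 4 DEGs as a percent of the tested genes of each list, lower in CTCF-K20R EBs to the left and higher to the right, with the number of genes beside each bar and the number tested in parentheses. The organizer (14 of 19) and presomitic (20 of 29) lists lie mostly to the left and the naive pluripotency (14 of 23) and glycolysis (11 of 34) lists to the right, against 8.65% lower and 6.89% higher over all genes tested.

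Genes for glycolysis and the response to low oxygen rose in part. Of 34 genes tested, 11 were higher and the other 23 were not DEGs (median 0.80), against 6.89% higher and 8.65% lower over all genes tested. Slc2a1, the glucose transporter GLUT1, had 12499 and 12439 normalized counts in WT and 33816 and 34190 in CTCF-K20R EBs (log2 fold change 1.45, SE 0.03, adjusted p = 1.3e-05). Pdk1, a kinase that holds pyruvate out of the mitochondrial cycle, went from 2670 and 2647 to 9310 and 9644. Bnip3, a mitophagy receptor gene induced by hypoxia, went from 2168 and 2178 to 5478 and 5443, with 57.0% of its words shared with other transcripts, most of them of AC160336.1. Ddit4, an inhibitor of mTORC1, went from 4737 and 4729 to 9777 and 9868. The phosphofructokinase genes Pfkp and Pfkfb3 rose by 1.15 and 1.25 on the log2 scale. Outside the list, and chosen after their values were seen, the lactate exporter gene Slc16a3 (4515 and 4517 to 10316 and 10269) and Egln1, an oxygen sensor gene that HIF induces (839 and 845 to 2057 and 2084), moved likewise. On day 0, 1 of the 34 genes was a DEG, in the lower direction, and the median was -0.01.

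Promoter bases are shown for the 4 abundant DEGs of this list whose windows hold the letters ACGTG, the core of the hypoxia response element. The windows are the 250 bases before the RefSeq start on GRCm38.p6, printed 5′ to 3′ on the strand of the gene, with the matches on either strand in capitals. Of the 2 windows of Pfkfb3, the one with the most matches is printed. They lie at chr4:119108495-119108744 (+) for Slc2a1, chr10:59951771-59952020 (-) for Ddit4, chr7:138909507-138909756 (-) for Bnip3 and chr2:11502091-11502340 (-) for Pfkfb3.
Slc2a1: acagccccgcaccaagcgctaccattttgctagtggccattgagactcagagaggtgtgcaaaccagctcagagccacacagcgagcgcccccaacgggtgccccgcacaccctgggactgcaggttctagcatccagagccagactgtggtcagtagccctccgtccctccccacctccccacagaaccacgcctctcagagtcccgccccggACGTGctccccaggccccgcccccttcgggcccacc
Ddit4: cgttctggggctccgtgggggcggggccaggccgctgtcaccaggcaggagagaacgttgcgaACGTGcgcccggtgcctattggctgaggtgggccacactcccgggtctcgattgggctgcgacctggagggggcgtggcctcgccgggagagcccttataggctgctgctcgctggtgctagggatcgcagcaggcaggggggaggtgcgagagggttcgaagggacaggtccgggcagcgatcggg
Bnip3: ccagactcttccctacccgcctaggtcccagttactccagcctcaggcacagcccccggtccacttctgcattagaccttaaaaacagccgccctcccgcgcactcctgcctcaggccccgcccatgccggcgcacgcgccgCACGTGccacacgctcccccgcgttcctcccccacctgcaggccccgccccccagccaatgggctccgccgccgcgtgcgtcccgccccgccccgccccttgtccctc
Pfkfb3: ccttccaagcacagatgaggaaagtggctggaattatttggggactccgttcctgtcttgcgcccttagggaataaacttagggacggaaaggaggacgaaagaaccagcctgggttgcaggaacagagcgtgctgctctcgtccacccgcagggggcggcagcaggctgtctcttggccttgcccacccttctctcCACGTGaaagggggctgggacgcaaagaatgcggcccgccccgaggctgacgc
The windows of Pdk1 and Pfkp held no such match. Windows were found for 243 of the 332 abundant DEGs and for 11161 genes tested. ACGTG was present for 34.1% of 129 higher genes, 17.5% of 114 lower genes and 24.5% of all. A gene counted when any of its windows held the letters. The search, chosen after the values were seen, is a description of letters and does not identify bound sites. The letters CACCTG (24%, 18.4% and 19.3%), TGACNNNGC (15.5%, 12.3% and 13.9%), GGTGTGA (3.88%, 4.39% and 3.52%), CTTTGAT (3.88%, 4.39% and 2.78%) and ACAAAG (11.6%, 20.2% and 15%) were searched in the same way, in the same order of gene sets and on both strands.

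The next 6 genes, of metal binding and antioxidant defence, were picked after their values were seen and stand for no list. Mt1 and Mt2, whose products bind zinc and other metals, lie next to each other on chromosome 8 with 5514 bases between them. Mt1 had 950 and 943 normalized counts in WT and 5197 and 4639 in CTCF-K20R EBs, and Mt2 881 and 872 against 4128 and 3732, with log2 fold changes of 2.37 and 2.16. On day 0 the values were -0.19 and -0.26. Both lie in the shifted stretch of chromosome 8, and subtracting the median there left log2 fold changes of 1.80 and 1.59. The Mt2 window, at chr8:94172368-94172617 (+), holds 5 matches to the metal response letters TGCNCNC, in capitals. However, 57.6% of all tested genes with a window hold at least 1, as do 69.8% of the higher and 64.9% of the lower genes. The Mt1 window holds 1 match.
Mt2: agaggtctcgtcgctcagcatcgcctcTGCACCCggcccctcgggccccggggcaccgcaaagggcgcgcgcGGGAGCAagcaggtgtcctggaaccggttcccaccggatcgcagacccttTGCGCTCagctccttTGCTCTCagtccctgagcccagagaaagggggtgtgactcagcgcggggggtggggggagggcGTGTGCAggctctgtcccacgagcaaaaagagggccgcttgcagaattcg
Of the words of Mt2, 58.1% also occur in other transcripts, most of them of Gm45774, and those of Mt1 occur in none. Gclm, a subunit of the enzyme that limits glutathione synthesis, went from 584 and 568 to 3149 and 2906. Gstm1, a glutathione transferase gene, went from 554 and 553 to 2054 and 1928, Hmox1 (heme oxygenase 1) from 969 and 951 to 2841 and 2599, and Txnrd1 (thioredoxin reductase 1) from 5563 and 5562 to 11564 and 11701. Their log2 fold changes were 2.39, 1.84, 1.5 and 1.06. Of the words of Gstm1, 28.8% also occur in other transcripts, most of them of Gstm2-ps1. Hmox1 lies in the shifted stretch of chromosome 8 too, and the same subtraction left 0.93.

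The remaining genes with the largest rises had varied roles. Lrp2 (megalin, an endocytic receptor) went from 273 and 271 to 2519 and 2816, Slc7a3 (a transporter of cationic amino acids) from 497 and 515 to 4235 and 4196, and Abcc4 (an exporter of organic anions) from 447 and 458 to 3660 and 3843. Ctgf, a secreted matrix protein gene and target of YAP, went from 346 and 369 to 2844 and 2821, and Bhlhe40, a transcriptional repressor of the clock, from 411 and 407 to 2187 and 2333. In each of these genes both CTCF-K20R libraries lay above both WT libraries, as the naming rule required. Enpp2 (autotaxin, which makes lysophosphatidic acid) had 442 and 446 in WT and 3839 and 3855 in CTCF-K20R EBs (log2 fold change 3.11). Its CTCF-K20R EB libraries were thus close, but the fit shares 1 spread over both days. In the CTCF-K20R mESC libraries Enpp2 had 1.24 and 6.53 normalized counts, near the limit of 3 reads. Its SE of 0.67 was the widest of the named higher genes and its limma adjusted p was 0.0161. Without either CTCF-K20R EB library that p was 0.148 or 0.149. Chd9, a chromatin remodeller gene, went from 595 and 604 to 4775 and 5120.

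Rises at high normalized counts included coding genes and noncoding or unclassified transcripts. Cmah, which encodes a sialic acid hydroxylase, had the highest normalized count of all abundant DEGs, with 36578 and 36505 normalized counts in WT and 191768 and 185958 in CTCF-K20R EBs (log2 fold change 2.37, SE 0.03, adjusted p = 7.67e-06). The RNA-editing homologue Adarb2 went from 6644 and 6586 to 26960 and 28320, and the noncoding 2810429I04Rik from 6942 and 6906 to 27478 and 28562. Cmah, Adarb2 and 2810429I04Rik lie on chromosome 13, with starts at 24327404, 8202866 and 3478230, and their log2 fold changes were 2.37, 2.06 and 2.02. ENSMUSG00000102700, an unclassified transcript that overlaps Sh3bp4 on the same strand, went from 11280 and 11336 to 43213 and 42994. Of its words, 29.2% also occur in other transcripts. 2410007B07Rik went from 271 and 280 to 4440 and 4340. For 2 others the sequence does not assign the reads: 76.7% of the words of Gm10116 occur in other transcripts, most often of the ferritin light chain gene Ftl1, and 89.4% of those of RP23-109O14.2, most often of Gm43041. The median share of such words over 331 abundant DEGs was 1.08%, and 13 shared more than 50%. Of the 332 genes, 97 higher and 86 lower ones overlapped another annotated gene, against 56.1% of all genes tested and 55.7% of abundant genes.

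Adjacent abundant DEGs moved together in some places and apart in others. Itga6 and Pdk1, 14808 bases apart on chromosome 2, both rose (1.01 and 1.83). On the X chromosome Dgkk and Clcn5 both fell (-5.43 and -1.27), whereas Acsl4 rose and its neighbour Tmem164 fell (1.25 and -1.37). A pair below the abundance limit was of interest because Kirrel2 is a given marker: Kirrel2 and Nphs1, genes of slit diaphragm proteins, lie head to head on chromosome 7. Kirrel2 had 6.81 and 6.49 normalized counts in WT and 167 and 228 in CTCF-K20R EBs, and Nphs1 17.9 and 18.9 against 507 and 389, with log2 fold changes of 4.68 and 4.52. In mESCs their means were 914 and 601 for Kirrel2 and 1616 and 1242 for Nphs1 in WT and CTCF-K20R. Of the 8 slit diaphragm genes tested, 2 were higher and 2 lower, against 6.89% higher and 8.65% lower over all genes tested.

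Markers of other cell types moved in both directions. Of 20 genes of visceral and parietal endoderm, 6 were lower and 3 higher, with summed normalized counts of 43954 and 43798 in WT and 24105 and 23383 in CTCF-K20R EBs. Gata6, an endoderm and mesoderm factor of that list, went from 1207 and 1205 to 4.69 and 10.7. Of 25 genes of the neural ectoderm list, 8 were lower and 3 higher (sums 11925 and 11874 in WT, 8720 and 8827 in CTCF-K20R). None of these 25 was an abundant DEG. The count covers that list only, which does not hold Sox2 and Pou3f1, given above with the pluripotency genes. Of 17 blood and endothelial genes, 4 were lower and 3 higher. Flt1, a VEGF receptor gene, fell from 2789 and 2809 to 336 and 348. The medians of the blood, fibroblast and cell cycle lists were near 0 and changed sign between settings. Of 14 markers of embryonic fibroblasts, on which the mESCs had grown, 2 were higher and 2 lower, with sums of 5692 and 5606 in WT and 4636 and 4358 in CTCF-K20R EBs, and Postn was at 0 in both CTCF-K20R libraries. Of 11 genes of the 2-cell-like state, 8 were higher on day 4 and 7 on day 0, but their sums remained low, at 202 and 207 in WT and 784 and 761 in CTCF-K20R EBs. Of 22 germline and methylation-silenced genes, 11 were higher and 3 lower. The part of these cells in the results was not tested. The other lists were p53 targets (5 higher and 3 lower of 26), amino acid and unfolded protein stress (4 and 1 of 28), cell cycle and core histones (3 and 3 of 30), CTCF and cohesin (3 higher of 25) and cholesterol synthesis (1 and 1 of 23), where 6.89% of all genes were higher and 8.65% lower. The 3 higher genes of the cohesin list were the germline members Stag3, Smc1b and Ctcfl, with log2 fold changes of 1.28, 2.67 and 1.85.

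The day 0 fold changes were not used in the choice of genes. The day 0 libraries did enter it, through the filter over the 8 libraries and the shared estimate of spread. A gene with a small shared spread passes more easily on both days, so the day 0 counts below are a description. On day 0 96 of the 172 higher and 62 of the 160 lower genes differed at an adjusted p below 0.05 in either direction, against 15.4% of all genes tested and 26.6% of abundant genes, but few passed the fold threshold. Of the 172 higher genes, 6 were also DEGs in the same direction in CTCF-K20R mESCs and 2 in the opposite direction, where 1.19% of all genes and 0.365% of abundant genes were higher DEGs on day 0. Of the 160 lower genes, 17 were DEGs in the same direction and 2 in the opposite direction, where 2.6% of all genes and 1.37% of abundant genes were lower DEGs. Of these 23 same-direction calls 9 lay in the shifted stretches described below, which left 2 of 144 higher and 12 of 147 lower genes outside them. In either direction 1.74% of abundant genes were DEGs on day 0. These day 0 calls, however, depended on the CTCF-K20R EB libraries, which enter the day 0 test through the shared estimate of spread. Without either of them the residual degrees of freedom went from 2 to 1 and the prior ones from 3.51 to 1.77. The day 0 calls were then lost. The genes called on day 0 in the day 4 direction included Bst2, a membrane protein gene induced by interferon (1.91 on day 0 and 2.31 on day 4), Cachd1 (-2.44 and -1.19) and Vrtn, a factor for vertebral number (-2.50 and -1.14). Ndn and Nrp2 were higher on day 0 (1.1 and 1.11) and lower on day 4 (-1.41 and -5.13). The test of the difference between days passed for 162 of the 172 higher and 140 of the 160 lower genes, against 26.6% of all genes tested and 40.5% of abundant genes. The day 4 values that chose the genes enter this difference, so nothing further is read from those counts. Rbm3 was among the genes with no detected difference between days (-0.01, adjusted p = 0.976).

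**Figure D4:**
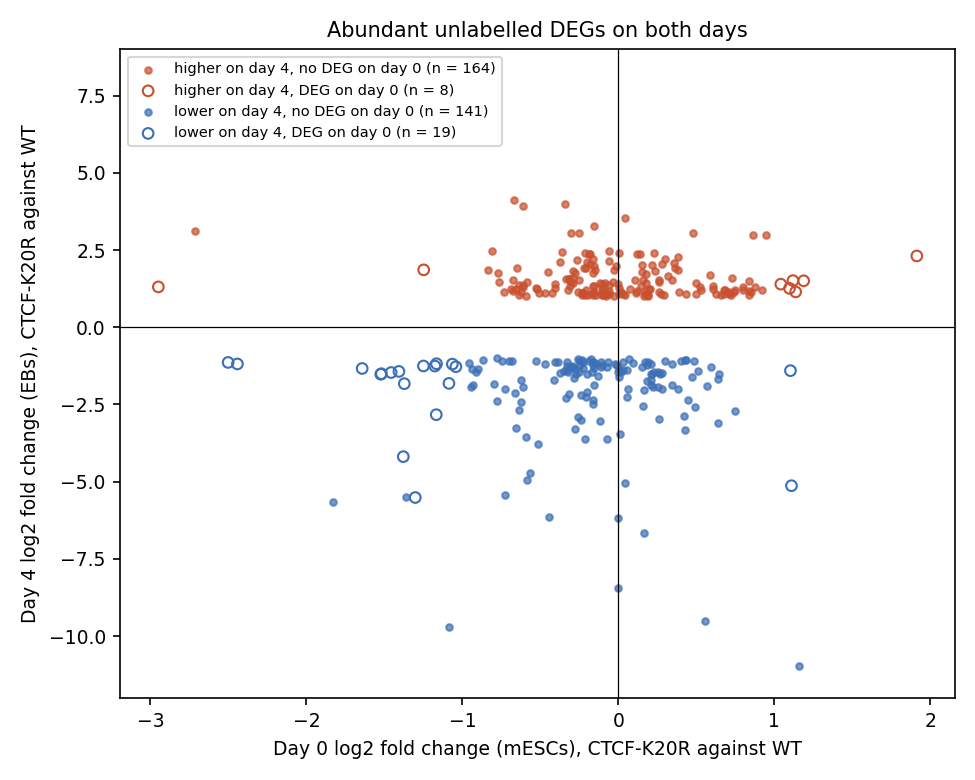
Log2 fold change of CTCF-K20R against WT on day 0 (mESCs, horizontal) and day 4 (EBs, vertical) for the 332 abundant DEGs, with open circles for genes that were also DEGs on day 0. Most points lie near 0 on the horizontal axis; 8 of the 172 higher and 19 of the 160 lower genes are open circles.

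Part of the abundant DEGs lay where neighbouring genes were shifted together before differentiation. A gene was placed in such a stretch if the median day 0 log2 fold change of its 40 nearest tested genes was above 0.3 or below -0.3, which held for 4.75% of all genes tested and 5.13% of abundant genes. On chromosome 8, from 66697192 to 112011323, 440 genes had a median difference from WT of 0.56 and 0.58 in the mESC libraries and 0.57 and 0.56 in the EB libraries of CTCF-K20R. On chromosome 2, from 126215100 to 131146321, 77 genes had medians of 0.57 to 0.58 in the 4 libraries. On chromosome 14, from 34820108 to 67072444, 215 genes had medians of -0.93 and -0.90 in mESCs and -0.85 and -0.91 in EBs. The shifts were thus of similar size on both days, whereas the rest of each chromosome had medians within 0.05 of 0. Ctcf lies within the stretch of chromosome 8, as do Cdh1, Chd9, Mt1, Mt2, Hmox1 and Bst2. In all, 39 abundant DEGs lay in these stretches and moved in their direction, and 7 of them still exceeded 1 after the day 4 median of the stretch was subtracted. Without genes in shifted neighbourhoods 144 higher and 147 lower abundant DEGs were left. Cdh1, Gab1 and Hmox1 were not among these 7, whereas the log2 fold change of Chd9 went from 3.04 to 2.47. The part of the shifts in the levels of the other genes was not tested.

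**Figure D5:**
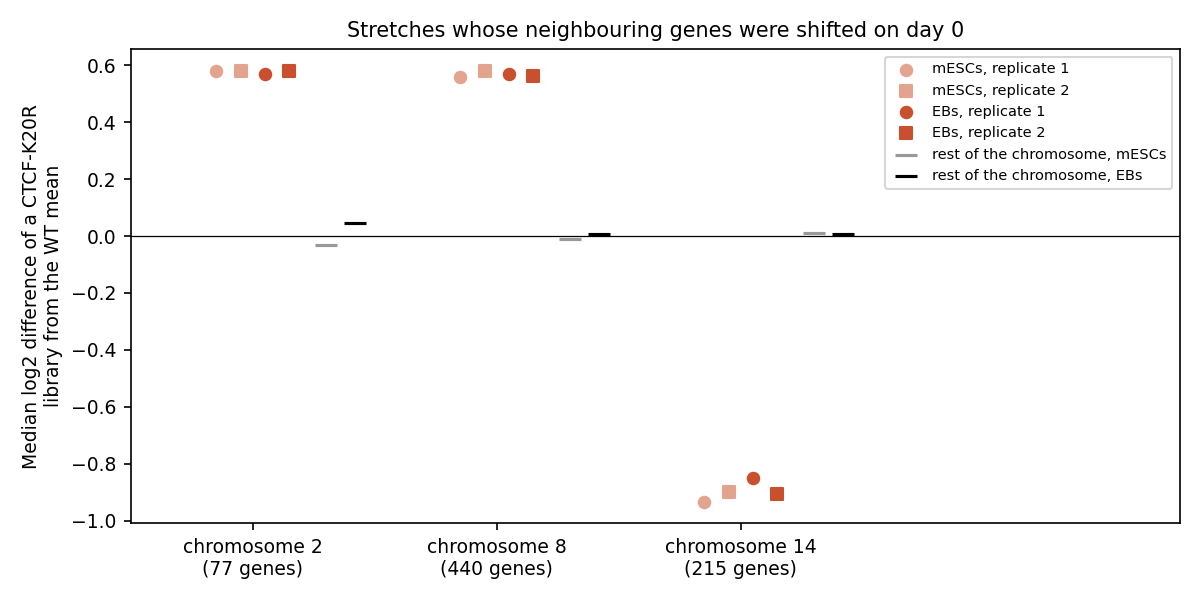
Median log2 difference of each CTCF-K20R library from the WT mean of its day over the genes of the shifted stretches of chromosomes 2, 8 and 14, with dashes for the rest of each chromosome. The 4 libraries lie at 0.56 to 0.58 for chromosomes 2 and 8 and at -0.93 to -0.85 for chromosome 14, in mESCs and EBs alike.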

How the data were processed

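RNA-seq covered mESCs and day 4 EBs of both genotypes, in 4 groups of 2 libraries. The authors trimmed reads with Trim Galore, quantified them with Salmon on mm10 and deposited DESeq2-normalized values (a normalized signal per gene for 18094 genes, not whole read counts). The annotation release and the use of strand are not given in the sources used here. Whole reads could not be recovered, so no count test was run. WT libraries of a day were averaged into 1 sample where they differed by less than sampling noise, which left 6 samples. Genes with a mean of at least 10 over the 8 libraries were tested with limma 3.58.1 (R 4.3.3, mean-variance trend) on log2(value + 1), with 4 group means, 2 residual degrees of freedom, and p-values were adjusted by the Benjamini-Hochberg method over 15767 genes. Fold changes on this scale understate the change of low genes. The p-values measure only the spread between these samples. Normalized counts are not per length, so the abundance minimum and the ranks by level favour long transcripts.

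A DEG had a log2 fold change beyond 1 in either direction at an adjusted p below 0.05. In each direction, the 12 abundant DEGs with the largest change and the 8 with the highest mean were named, together with given markers and up to 4 genes of each of 26 lists by level. The 12 and the 8 had to have both CTCF-K20R EB libraries beyond both WT ones, which held for all 172 higher and 160 lower genes. The members and lists were chosen with earlier results of these data known. Replicate numbers did not pair the samples (correlations of -0.031 to 0.030). Coordinates are from GENCODE vM21, in which 17948 genes were found. Shared words are 31-base words of a gene's transcripts, on either strand, that occur in another gene. On simulated data with 200 changed genes per run, a median of 184 was recovered in the day 4 comparison, with a median of 0 false calls. These were 86 of 100 genes at a log2 fold change of 2 and 99 of 100 at 3. Recovery below 2 was not tested, and only 34 of the 172 higher and 51 of the 160 lower abundant DEGs changed by more than 2. The number of false calls with more changed genes was not tested. Alternatives included another pseudocount, filter, scaling, threshold and abundance minimum, a replicate block, and each library left out.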

Additional observations from a re-analysis of the deposited data

Results flagged for a closer look

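For 162 of the abundant DEGs that were higher on day 4 and 140 of those that were lower, the genotype effect differed between days (limma, adjusted p under 0.05), as it did for 26.6% of all genes tested and 40.5% of abundant genes. The day 4 values that chose the genes enter this difference, so the counts are a description. Among the genes named by change, by level or as given markers, both days passed this threshold with opposite signs for the following. The difference between the day 4 and the day 0 log2 fold changes was -6.24 for Nrp2, 4.78 for Cxcl12, 4.33 for 2410007B07Rik, 4.54 for Utf1 and 3.35 for Abcc4. On day 0 alone, Nrp2 was higher in CTCF-K20R mESCs (1.11), and Cxcl12 (-0.67), 2410007B07Rik (-0.34), Utf1 (-0.61) and Abcc4 (-0.30) were lower.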

How the results depend on the processing

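None of the 43 genes named by change, by level or as given markers changed direction under the alternatives run. The balance of higher and lower genes did change. There were 1448 higher and 1249 lower DEGs after quantile normalization and 926 and 1586 after scaling to the same total, with 162 and 181 or 137 and 199 abundant DEGs. The median log2 fold changes of the blood, fibroblast and cell cycle lists changed sign between settings. Of the 332 abundant DEGs, 332 remained with all 8 libraries as separate samples, 318 after quantile normalization, 297 after scaling to the same total and 311 without either CTCF-K20R EB library. Genes higher in CTCF-K20R EBs made up 44.3% of all DEGs, 53.7% after quantile normalization and 36.9% after scaling to the same total. An adjusted p under 0.01 left 884 lower DEGs. With no minimum fold change there were 3395 higher and 2934 lower DEGs, 1655 and 951 of them abundant and unlabelled. An abundance minimum of 500 gave 277 higher and 329 lower genes, and one of 2000 gave 93 and 63. Without genes that overlap another annotated gene, an alternative chosen after seeing the data, 75 and 74 were left.

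Leaving out each library in turn gave 721 to 1107 higher and 869 to 1367 lower DEGs, 166 to 172 higher and 153 to 163 lower abundant DEGs, and 240 to 304 abundant DEGs with a difference between days. Without replicate 1 of the CTCF-K20R EBs there were 721 and 869 DEGs, and without replicate 2 there were 745 and 936. Abundant DEGs called on day 0 ranged from 0 to 24 in the day 4 direction and from 0 to 5 in the opposite one, and the 0 was found without either CTCF-K20R EB library (limma, with 23 and 4 at an unadjusted p below 0.05). The lone library was then assumed to vary like the other groups.

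The replicate numbers did not pair the samples. With the replicate block there were 1072 higher and 1373 lower DEGs, and all 332 abundant DEGs remained.

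Enpp2 lost its call without the filter on low values (adjusted p = 0.0561) and without either CTCF-K20R EB library (0.148 and 0.149). Gm10116 fell under the fold threshold after quantile normalization (log2 fold change 0.63) and scaling to the same total (0.98), and Tdgf1 without replicate 2 of the CTCF-K20R EBs. Pkd1l1 lost its call in that fit (adjusted p = 0.0538).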
